A study of Mus musculus with 4 samples.

Results

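Genes that mark fat cells were followed in the distal colon of mice with and without Adamts12 and with and without colitis. The set was named gene by gene: Adipoq, Retn, Cfd, Lep, Plin1, Fabp4, Cidec, Lpl and Pparg, 9 in all. A gene was measured through every probe set (a group of short DNA probes for 1 transcript) that the platform annotation maps to that gene alone. This gave 11 of the 45101 probe sets on the array, for 7 of the 9 genes, out of 18193 genes named this way. Cfd and Plin1 had no probe set assigned to them in the annotation used and were not analysed here.

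The study used 4 Affymetrix arrays, and each group is a single array. The groups were Adamts12 WT untreated, Adamts12 KO untreated, Adamts12 WT given 2% dextran sodium sulfate (DSS) and Adamts12 KO given 2% DSS. Adamts12 encodes a secreted metalloprotease, and DSS in the drinking water injures the colonic epithelium and causes colitis. Mice were 8 to 10 weeks old when treatment began. DSS ran for 8 days by the treatment protocol and for 7 days by the series text, with 1 day without DSS afterwards in both. Strain, sex and the part of Adamts12 removed are not stated in these sources. The tissue is called distal colon in all labels, and how much of the outer wall or attached mesentery was kept is not stated.

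White adipocytes store triglyceride in 1 large lipid droplet and secrete hormones, the adipokines. PPAR gamma, encoded by Pparg, is the nuclear receptor that drives adipocyte differentiation, and it switches on genes for fatty acid uptake and storage such as Fabp4, Lpl and Cidec. Fat lies along the mesenteric border of the colon, outside the muscle layer. Adipoq, Retn, Lep and Cidec are made mainly by adipocytes in the mouse, whereas Fabp4 is also made by capillary endothelium and macrophages, Lpl by macrophages and muscle, and Pparg by colonic epithelium and macrophages. In bulk tissue, fewer cells of a type and less RNA per cell cannot be told apart.

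The promoters of the 3 adipokine genes are shown because Adipoq and Retn stood higher on the same arrays while Lep stayed low on all of them. Each window runs from 250 bases before to 50 bases after the annotated start (RefSeq, GRCm38.p6), on the plus strand, at chr16:23146286-23146585 for Adipoq, chr8:3655520-3655819 for Retn and chr6:29059971-29060270 for Lep. Capitals mark letters that match the CAAT-box sequence CCAAT, the TATA-box sequence TATAAA, the sequence AGGTCA (a hexamer bound by nuclear receptors such as PPAR gamma) or TTGCNNAA (a C/EBP-type sequence), searched on both strands. No matches overlapped in these windows.
Adipoq: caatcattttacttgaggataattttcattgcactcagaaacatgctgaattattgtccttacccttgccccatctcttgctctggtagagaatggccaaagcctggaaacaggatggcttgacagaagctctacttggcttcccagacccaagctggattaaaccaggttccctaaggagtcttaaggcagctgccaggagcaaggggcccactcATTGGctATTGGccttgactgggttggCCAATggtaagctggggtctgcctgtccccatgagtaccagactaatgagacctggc
Retn: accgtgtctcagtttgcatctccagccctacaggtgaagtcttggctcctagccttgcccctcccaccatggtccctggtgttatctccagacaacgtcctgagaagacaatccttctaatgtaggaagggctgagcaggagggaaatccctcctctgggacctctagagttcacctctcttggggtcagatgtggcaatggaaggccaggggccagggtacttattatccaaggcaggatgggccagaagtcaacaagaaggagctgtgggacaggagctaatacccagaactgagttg
Lep: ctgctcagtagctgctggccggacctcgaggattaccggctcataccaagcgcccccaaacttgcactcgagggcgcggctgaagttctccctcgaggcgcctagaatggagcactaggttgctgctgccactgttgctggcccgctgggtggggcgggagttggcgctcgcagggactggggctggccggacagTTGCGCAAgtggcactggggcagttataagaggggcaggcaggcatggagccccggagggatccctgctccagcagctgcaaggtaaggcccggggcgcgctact
The Adipoq window held 3 matches to CCAAT, a sequence found in 37.4% of 32851 promoter windows of this length. The Lep window held 1 match to TTGCNNAA, which lay 55 bases before the start and occurs in 10.8% of windows. The Retn window held no match to any of the 4 sequences; AGGTCA occurs in 16.3% of windows and TATAAA in 13.6%. Pparg, with 3 annotated starts, had 1 match to AGGTCA in each of 2 windows. A match describes letters only.

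All values are log2 as deposited, and a difference of 1 is 2-fold. As a yardstick for silence, 36 probe sets of 23 photoreceptor and sperm genes were read on the same arrays, and 95% of their values lay at or under 3.14, called the silent level below. Of the 7 genes, 4 lay above the silent level on all arrays (Retn, Fabp4, Lpl and Pparg), Adipoq did so on 2, and Lep and Cidec on none. With 1 array per group, differences between arrays have no replicate check, and since the 4 comparisons reuse the same 4 arrays they are not independent of each other.

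The untreated KO colon had higher values of all 7 adipocyte genes than the untreated WT colon, where 55.9% of all genes were higher. Lpl, Adipoq, Pparg and Cidec were at least 2-fold higher there, and the median log2 difference over the 7 genes was 1.35 against 0.07 over all genes. At least 2-fold higher values were seen for 2.5% of all genes and at least 2-fold lower values for 4.17%, while 0 of the 7 were lower by that much. Cidec and Lep lay under the silent level on both arrays. With each value under that level set to it, 5 of the 7 were higher at all and the median was 0.69. Of these, Lpl, Adipoq and Pparg, 3 of the 7, were at least 2-fold higher (2.08% of all genes were).

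Between the DSS arrays the order turned for 5 of the 7 genes, which were lower in KO, as were 52.2% of all genes. Adipoq, Retn, Lep, Cidec and Pparg were lower in KO than in WT, Fabp4 and Lpl were higher, and the median was -0.30 against -0.02 over all genes. Lep and Cidec lay under the silent level on both arrays. With values under that level set to it, 3 of the 7 were lower in KO, 2 were higher and the median was 0.00. Adipoq was the 1 gene at least 2-fold lower, where 0.824% of all genes were, and 0 were 2-fold higher, against 2.95%.

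With DSS, all 7 genes had higher values in WT, as did 9094 of all 18193 genes. In KO, 5 of the 7 had lower values, as did 9722 of all genes. In WT, Adipoq and Lpl were at least 2-fold higher (3.92% of all genes were) and 0 were 2-fold lower (3.49%), with a median of 0.55 against 0.00. In KO, Adipoq, Pparg and Cidec were at least 2-fold lower (4.73% of all genes were) and 0 were 2-fold higher (7.41%), with a median of -0.47 against -0.05. Cidec and Lep lay under the silent level on all arrays. With values under that level set to it, 5 of the 7 genes were higher with DSS in WT. In KO, with the same setting, 2 genes, Adipoq and Pparg, were at least 2-fold lower (4.22% of all genes were). There 3 were lower at all and the median was 0.00. The median of -0.47 in KO starts from the untreated KO array; with the untreated WT array as the base for the KO DSS array it was 0.19, with 0 genes 2-fold lower and 1, Lpl, 2-fold higher.

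**Figure D1:**
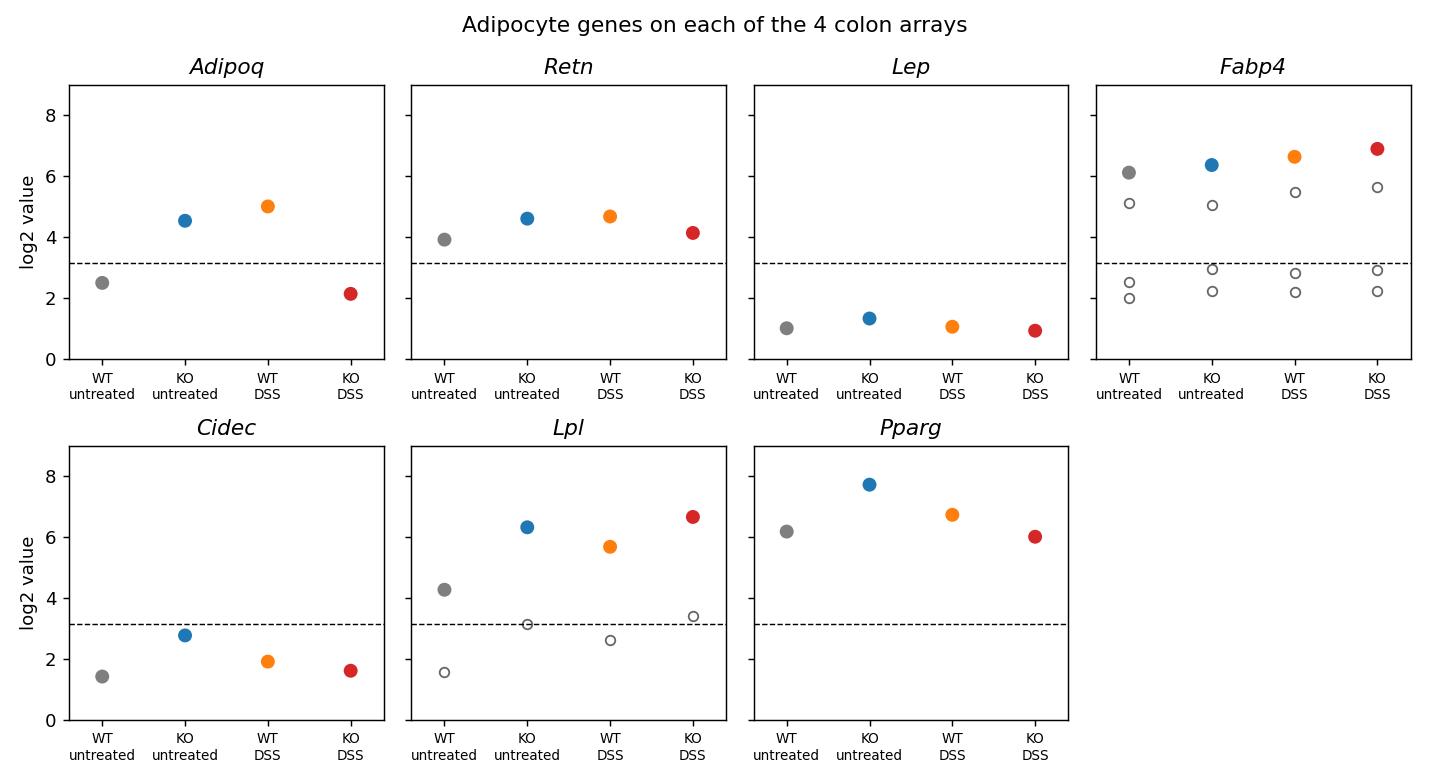
Log2 value of each of the 7 measured adipocyte genes (y axis) on the 4 arrays (x axis), with 1 array per group. Filled points are the gene's brightest probe set, open points its other probe sets, and the dashed line is the silent level of 3.14. Adipoq lies above the line on the untreated KO and WT DSS arrays only, and Lep and Cidec stay under it on all 4.

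Adipoq encodes adiponectin, an abundant circulating adipokine. Its log2 value was 2.50 on the untreated WT array, 4.54 on the untreated KO array, 5.01 on the WT DSS array and 2.14 on the KO DSS array. The untreated KO and WT DSS arrays were high and the other 2 lay under the silent level. KO minus WT was 2.04 without DSS and -2.87 with DSS, and DSS minus untreated was 2.51 in WT and -2.40 in KO. Measured against the silent level rather than the dim arrays, the high arrays stood 1.40 (untreated KO) and 1.87 (WT DSS) above it, or 2.63-fold and 3.65-fold.

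Retn encodes resistin, an adipokine linked to insulin resistance in mice. It was at 3.92 in untreated WT, 4.61 in untreated KO, 4.68 in WT with DSS and 4.14 in KO with DSS. The same arrays were high as for Adipoq, over a range of 0.76 where that of Adipoq was 2.87. Over the 4 arrays, Adipoq and Retn correlated at r = 0.94, given as a description of 4 points. The goblet cell relative Retnlb did not share this order, with 11.87 in untreated WT, 10.40 in untreated KO, 11.71 in WT with DSS and 9.81 in KO with DSS.

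Lep, the satiety hormone leptin, stayed far under the silent level. Its values were 1.01 in untreated WT, 1.33 in untreated KO, 1.06 in WT with DSS and 0.93 in KO with DSS, a range of 0.40. Its receptor gene Lepr was above the silent level on 2 arrays, and its untreated KO minus WT difference was 0.44.

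Cidec encodes a lipid droplet protein that helps droplets fuse into the single droplet of white fat. It was at 1.42 in untreated WT, 2.77 in untreated KO, 1.91 in WT with DSS and 1.61 in KO with DSS. Only the untreated KO array stood out, by 1.35 over untreated WT, and it too lay under the silent level. The related Cidea, a gene of brown fat, also stayed under that level on all arrays, between 1.53 and 1.99.

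Pparg was at 6.18 in untreated WT, 7.72 in untreated KO, 6.73 in WT with DSS and 6.01 in KO with DSS. The untreated KO array was the highest, 1.54 above untreated WT, and the KO DSS array the lowest. The Pparg profile over the arrays lay nearest to that of Cidec among the other 6 genes, at a root mean square distance of 0.20 between centred log2 values. Cidec lay under the silent level on all arrays, so its profile was not measured precisely. Ppara, the receptor that promotes fatty acid oxidation, was higher by 1.99 in untreated KO as well, and Rxra, a dimer partner of PPAR gamma, by 0.96.

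Lpl encodes lipoprotein lipase, which releases fatty acids from circulating triglyceride. It was at 4.27 in untreated WT, 6.32 in untreated KO, 5.68 in WT with DSS and 6.66 in KO with DSS. The untreated WT array was the low one here, and the KO DSS array, lowest for Adipoq, was the highest. KO minus WT was 2.05 without and 0.98 with DSS on this probe set, and 1.59 and 0.79 on the dimmer second one. Gpihbp1, which carries the lipase to the capillary surface, differed by 0.48 without and 0.07 with DSS. Angptl4, which inhibits the lipase, had a KO minus WT difference of -0.64 without DSS and of 1.45 with DSS.

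Fabp4 encodes the fatty acid binding protein of adipocytes. Its brightest probe set was at 6.12 in untreated WT, 6.37 in untreated KO, 6.64 in WT with DSS and 6.90 in KO with DSS. DSS arrays lay above untreated arrays in both genotypes, by 0.52 in WT and 0.53 in KO. The second probe set gave 0.37 and 0.60. The remaining 2, under the silent level on all arrays, gave 0.31 and 0.19 in WT, and -0.03 and 0.00 in KO. KO minus WT without DSS was 0.25 on the brightest probe set and -0.06 on the second.

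**Figure D2:**
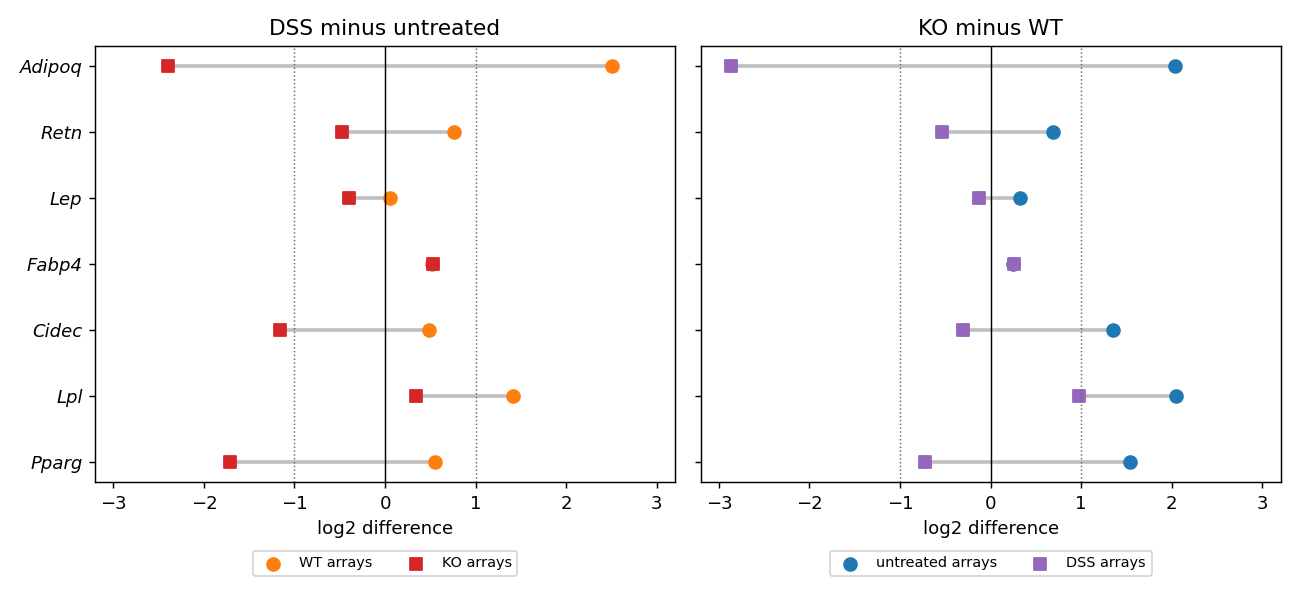
Log2 differences (x axis) of the 7 adipocyte genes (y axis), DSS minus untreated in WT and KO on the left and KO minus WT without and with DSS on the right. Each point is a difference between 2 arrays, grey bars join the 2 differences of a gene, and dotted lines mark 2-fold. The bar of Adipoq crosses from 2.51 to -2.40 on the left, while those of Lpl and Fabp4 stay above 0 on both sides.

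The DSS difference in KO minus that in WT summarises how far the 2 genotypes parted. It was -4.91 for Adipoq, -2.26 for Pparg, -1.65 for Cidec, -1.23 for Retn, -1.07 for Lpl, -0.45 for Lep and 0.01 for Fabp4. Adipoq lay under the silent level on the untreated WT and KO DSS arrays, so the size of its value depends on levels that were not measured precisely. With values under the silent level set to it, the value was -3.27 for Adipoq and 0 for Cidec and Lep. Thus 5 of 7 genes were at -1 or lower, where 4.63% of all genes were, and 0 were at 1 or higher, against 8.83%. With values under the silent level set to it, 4 of 7 were at -1 or lower (3.62% of all genes were). The median was -1.23 against -0.08 over all genes, and -1.07 with those values set. With 4 single arrays there is no spread to test this value.

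The main effects could be fitted over the 4 arrays with limma, where the spread is how far one factor's effect differs between the levels of the other. No gene of 18193 passed for DSS at an adjusted p under 0.05 (0% called, while 1583 genes or 8.7% had an unadjusted p under 0.05, 0 of the 7 adipocyte genes among them). None passed for KO against WT either (0%, with 296 genes or 1.63% at an unadjusted p under 0.05, Lpl among them). Fabp4 had a DSS difference of 0.53 (SE 0.22, limma adjusted p = 0.625) and Lpl of 0.88 (SE 0.37, limma adjusted p = 0.621), each higher in both genotypes. Lpl had a KO minus WT difference of 1.51 (SE 0.37, limma unadjusted p = 0.0185, adjusted p = 1.00), higher in KO under both treatments. For Adipoq, the opposite directions left a DSS difference of 0.06 and a KO difference of -0.41, with an SE of 1.32 for each.

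Other adipocyte markers differed by less, and 7 of the 19 measured lay under the silent level on all arrays. Of the 19, 13 were higher in untreated KO than in untreated WT (68.4%, against 55.9% of all genes), with a median of 0.27 and 0 at least 2-fold apart. The photoreceptor and sperm genes, higher there for 15 of 23, had a median of 0.15. Between the DSS arrays, 14 of the 19 were lower in KO (73.7%, against 52.2% of all genes), with a median of -0.19 and with 2, Car3 and Rbp4, at least 2-fold lower. Car3, a carbonic anhydrase abundant in adipocytes and muscle, was at 4.93 in untreated WT, 5.78 in untreated KO, 6.63 in WT with DSS and 4.03 in KO with DSS, high on the arrays where Adipoq was high. Cyp2e1, Adig, Orm1, Gpd1 and Slc7a10 also had their 2 highest values on those arrays, with untreated KO minus WT differences of 0.53, 0.90, 0.84, 0.67 and 0.42 and DSS KO minus WT differences of -0.95, -0.40, -0.19, -0.23 and -0.42. Rbp4, a retinol carrier, was instead lower in KO under both treatments, with differences of -0.85 without and -1.28 with DSS. Others followed different orders: KO minus WT was -0.74 without and 0.07 with DSS for Pde3b, a phosphodiesterase that curbs lipolysis, and -0.05 and 0.61 for Rarres2, the adipokine chemerin. Sncg differed between genotypes by -0.01 and 0.01, and was higher with DSS by 0.59 in WT and 0.61 in KO. Adig, Orm1 and Slc7a10 stayed under the silent level on all arrays.

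Genes of lipid storage differed in both directions. Of 17 lipid droplet and lipolysis genes, 1 was at least 2-fold higher in untreated KO (the lipase gene Mgll, 1.25) and 1 lower (the caveolae gene Cav1, -1.18), with a median of 0.16. Plin2, the droplet coat protein of most cell types, differed by -0.14 without DSS and by 0.86 with DSS. Of 18 genes of fatty acid and triglyceride synthesis, 3 were higher (Dgat2, 1.51; Mogat2, 1.46; Acacb, 1.19) and 1 lower (Pcx, -2.65), with a median of 0.07; Dgat2 and Mogat2 encode enzymes that also make triglyceride in the intestinal epithelium. Of 13 transcription factors of adipogenesis, Ppara was 2-fold higher, and Cebpd (-1.10) and Klf4 (-1.11) 2-fold lower, with a median of 0.11. Brown and beige fat genes had a median of 0.18 over 10 genes, and Ucp1, the uncoupling protein that defines brown fat, lay between 0.74 and 1.37 on all arrays, under the silent level.

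Relatives and receptors of the measured genes followed several orders. Fabp2, the enterocyte fatty acid binding protein, had a KO minus WT difference of 3.90 without DSS and of -3.56 with DSS, and Fabp1 stayed under the silent level on all arrays. Fabp5, found in many epithelia and in macrophages, differed by -0.97 and 0.59 in the same comparisons, and Retnla by -1.28 and 0.06. The adiponectin receptor genes Adipor1 and Adipor2 differed by -0.12 and -0.33 without DSS and by 0.09 and -0.74 with DSS. Apoc2, from the lipase partners, had the order of Adipoq. It was at 4.57 in untreated WT, 4.95 in untreated KO, 5.75 in WT with DSS and 4.08 in KO with DSS. Over the 19 measured relatives the untreated median was 0.03, with 3 at least 2-fold higher (Fabp2, Fabp6 and Ppara) and 2 lower (Retnla and Retnlb), and over the 13 receptors and lipase partners it was 0.17, with 0 at least 2-fold apart.

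Markers of other cells in the wall differed between these arrays too, and their part in the adipocyte values was not tested. Mesothelial markers, from the outer lining of the gut and its mesentery, mostly differed in the opposite direction to Adipoq. In untreated KO 8 of 9 were lower than in untreated WT (median -0.38), and 8 of 9 were higher in KO with DSS (median 0.77). The exception in both comparisons was Upk1b, with differences of 0.88 and -0.48, and it alone lay above the silent level on all arrays. Lrrn4, Wt1, Bnc1, Muc16 and Rspo1 stayed under that level on all arrays. The mean log2 value of the 9 markers was 2.78 in untreated WT, 2.28 in untreated KO, 2.25 in WT with DSS and 3.06 in KO with DSS. B cell and lymphoid markers mostly ran the same way. Of 9, 5 were at least 2-fold lower in untreated KO (median -1.50), where 4.17% of all genes were. With DSS, 7 of 9 were at least 2-fold higher in KO (median 1.65), where 2.95% of all genes were. Pax5 (0.52 and -0.14) and Cd3e (0.41 and -0.22) differed the other way in both comparisons. Fibroblast and preadipocyte markers had medians of -0.32 and 0.76 over 10 genes, with 8 lower in untreated KO and 8 higher in KO with DSS. Dlk1 was lower in KO in both comparisons, with differences of -1.65 and -2.00, as was Dpp4, with -0.28 and -0.15. Pi16 stayed under the silent level on all arrays.

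Smooth muscle markers were lower in untreated KO for all 10 measured (median -0.78) and had a median of 0.11 between the DSS arrays. Endothelial markers, from cells that also make Fabp4, had a median of -0.01 without DSS and of 0.54 with DSS. All 12 of 12 were higher in KO with DSS. Macrophage markers, from cells that also make Lpl and Fabp4, had medians of 0.17 and 0.23 over 12 genes. Colonic epithelial markers, from cells that also make Pparg, had medians of 0.16 and -0.15 over 12 genes. Without DSS, 1 of them was at least 2-fold higher in KO (Car1, 2.71) and 1 lower (Slc26a3, -1.90). The part of these cells in the values of Fabp4, Lpl and Pparg was not tested.

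Markers of position along the intestine also differed between these arrays, most widely in comparisons with the untreated KO array, and their part in the adipocyte values was not tested. All 12 small intestine and proximal colon markers were at least 2-fold higher in untreated KO than in untreated WT (median 4.78), a list partly picked from earlier results on these arrays, while among 9 Hox genes of the posterior body axis 6 were lower by that margin (median -1.52). Between the DSS arrays the medians were -0.62 and 0.33, with 4 of the 12 at least 2-fold lower in KO and 1 higher. The WT arrays differed as well: with DSS, 4 of the 12 were at least 2-fold higher and 2 lower (median 0.07), and 4 of the 9 Hox genes were lower by that margin (median -0.28). The Hoxd13 difference was -4.60, and Isx was at 2.69 on the untreated and 6.09 on the DSS array. Adipoq was higher by 2.51 between the same arrays.

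**Figure D3:**
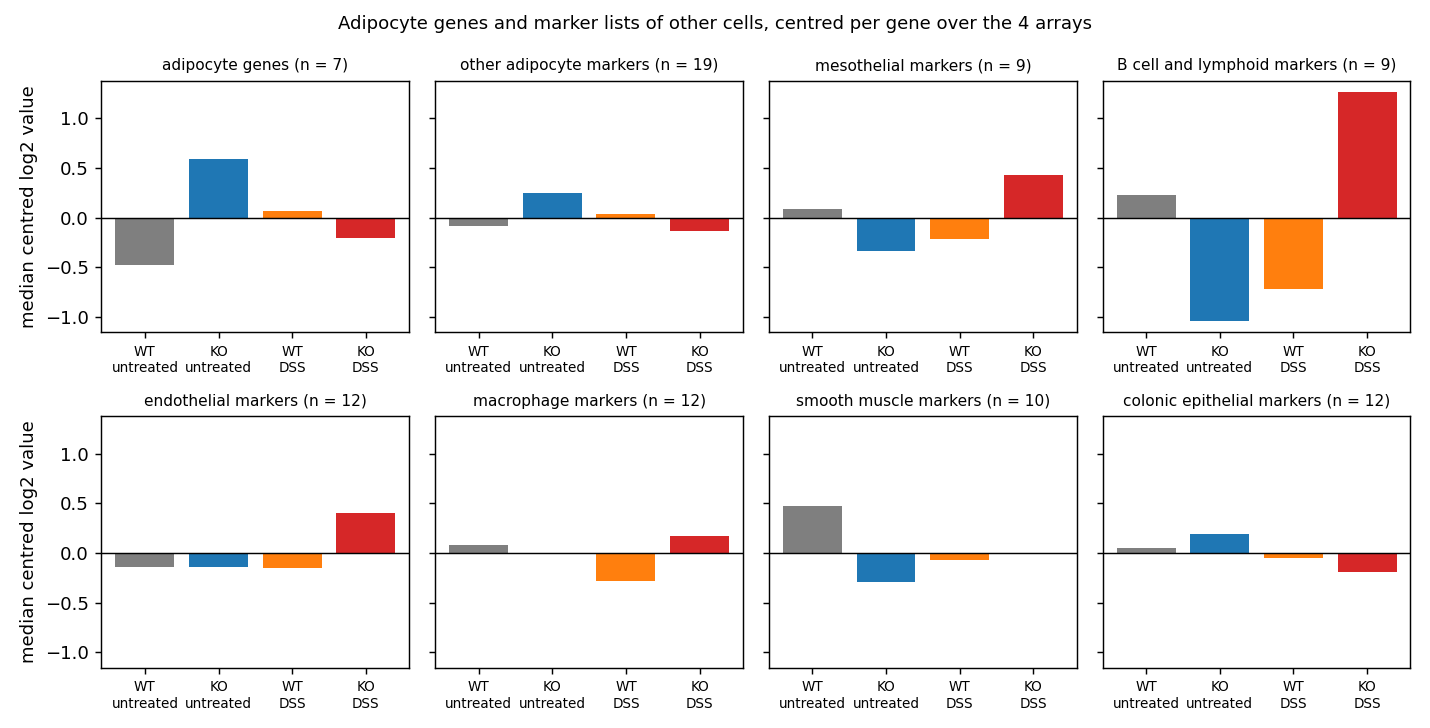
Median over genes of the log2 value centred on each gene's mean over the 4 arrays (y axis), for the 7 adipocyte genes and 7 marker lists on the 4 arrays (x axis). The adipocyte genes are highest on the untreated KO array (0.59) and lowest on the untreated WT array (-0.48), while the mesothelial and B cell lists are lowest on the untreated KO array (-0.34 and -1.04) and highest on the KO DSS array (0.43 and 1.26).

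The 6 genes whose centred profile over the 4 arrays lay nearest to that of Adipoq were Amph, Rassf4, Car3, Krt12, Car12 and Slc9a3, at root mean square distances of 0.43 to 0.53. Car3 is the 1 among them from the adipocyte lists. Slc9a3, a sodium-proton exchanger of the colonic epithelium, was at 7.98 in untreated WT, 8.94 in untreated KO, 9.43 in WT with DSS and 7.58 in KO with DSS. Car12, a carbonic anhydrase of epithelia, was at 4.37, 7.18, 7.03 and 5.27 on the same arrays in that order. The targeted gene Adamts12 was at 2.18 on both WT arrays and at 1.42 and 1.41 on the KO arrays without and with DSS, all under the silent level.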

How the data were processed

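The authors' deposited table gives 1 value per probe set and array on a log2 scale (0.16 to 13.23). The scale was inferred, since a natural log would exceed the 16-bit scanner limit. Summarization and normalization are not given in the sources used here. Values were used as deposited, with column medians of 3.42 to 3.46. The number of arrays limits the precision.

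Probe sets were named by the platform annotation, with symbols updated by Entrez number through RefSeq (GRCm38.p6). Of them, 34945 had 1 symbol (34741 matched by number), 932 had several, 9160 were unnamed and 64 were controls. A gene was represented by its brightest probe set over all arrays, with no filter. The silent level is a percentile over genes outside the study's tissue and no detection call.

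Differences between 2 arrays had no test. Main effects were fitted with limma 3.58.1 (R 4.3.3, lmFit, eBayes with trend, two-sided, Benjamini-Hochberg over all genes, 1 residual degree of freedom). The check of this fit on simulated data had a pass mark only for a low spread, the same for all genes. That pass mark therefore does not show what the fit can call at the spread of these arrays. The check was also run with residual spreads taken from these arrays, without a pass mark, and that outcome is not given here. Alternatives are given at the end; setting values under the silent level to it was added after seeing the data. The genes, the lists and the rule for named genes (all 9 members, fixed relatives and receptors, and in each comparison up to 6 genes of an adipocyte list or 4 of another list with the highest absolute differences) were chosen with earlier results of these data known. Python 3.11.15 was used.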

Additional observations from a re-analysis of the deposited data

Results flagged for a closer look

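For 5 genes the DSS difference had opposite signs in the 2 genotypes, higher with DSS on the WT arrays and lower on the KO arrays, with 1 array on each side. Over all genes, 24.2% were higher in WT and lower in KO with DSS, and 43.1% had opposite signs in either order. The KO minus WT gap in the DSS difference was -4.91 for Adipoq, -2.26 for Pparg, -1.65 for Cidec, -1.23 for Retn and -0.45 for Lep. The difference was not tested, because 4 single arrays leave no spread for it. Lep and Cidec lay under the silent level on all 4 arrays, and the DSS difference of Lep in WT was 0.05. The photoreceptor and sperm genes, used as the measure of silence, had median DSS differences of 0.04 in WT and -0.23 in KO, and 11 of 23 were higher in WT and lower in KO. Adipoq lay under the silent level on 2 arrays, and with values under that level set to it its gap was -3.27.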

How the results depend on the processing

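Quantile normalization, median centring, a filter at the array median (5 genes kept), the mean over probe sets and leaving out probe sets ending in _s_at, _x_at or _a_at (6 genes kept) left the counts of genes at least 2-fold apart within 1.5 times. The filter at the 75th percentile kept 3 genes (Fabp4, Lpl and Pparg). There, 2 were 2-fold higher in untreated KO, 0 were 2-fold lower between the DSS arrays (median 0.26), 1 was 2-fold higher with DSS in WT, 1 was 2-fold lower with DSS in KO (median 0.34), and 2 had a gap in the DSS difference of -1 or lower. With the untreated WT array as the base for KO with DSS, 1 gene was 2-fold higher and 0 lower, the median was 0.19, Adipoq was at -0.36 and Cidec turned to 0.19. Fabp4 had a DSS difference in KO of -0.03 without those probe sets. The gap in its DSS difference between genotypes, 0.01, turned below 0 under 3 alternatives. It was -0.10 under quantile normalization, -0.07 with the mean over probe sets and -0.34 without probe sets ending in _s_at, _x_at or _a_at.

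No fit with limma called a gene under any alternative. Leaving out each array in turn, without the covariate, moved the fitted DSS difference from -1.38 to 1.49 for Adipoq, -0.20 to 0.49 for Retn, -1.01 to 0.34 for Cidec, -0.15 to 1.90 for Lpl and -1.35 to 0.19 for Pparg. The KO minus WT difference ran from -1.67 to 0.84 for Adipoq, -0.30 to 0.46 for Retn, -0.10 to 0.29 for Lep, -0.01 to 0.52 for Fabp4, -0.06 to 1.10 for Cidec and -0.45 to 1.26 for Pparg, and stayed above 0 for Lpl (0.81 to 2.22). No paired analysis was possible because each group holds 1 array. Setting values under the silent level to it was chosen after seeing the data. It gave medians of 0.69 in untreated KO minus WT and 0.00 for DSS in KO. The KO minus WT median between the DSS arrays went from -0.30 to 0.00, within 1 SD. The other medians and the counts of genes at least 2-fold apart stayed within 1 SD or 1.5 times. Lep and Cidec on all arrays, and Adipoq on 2, lie under that level, and differences there are not measured precisely.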
